A study of Mus musculus with 58 samples.

Results

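The 10 genes described here form the core of transforming growth factor beta (TGF-beta) signalling in mouse microglia, the resident macrophages of the brain. They are the ligand Tgfb1, the receptors Tgfbr1 and Tgfbr2, the signal transducers Smad2, Smad3 and Smad4, the inhibitor Smad7, the corepressors Ski and Skil, and Nrros, which anchors the latent ligand to the cell surface. They were taken by symbol from 3 tables of read counts, and all 10 were listed and tested in each: 10 of 14309 genes tested in the age series, 10 of 10277 in the wild-type antisense experiment and 10 of 10589 in the knockout antisense experiment. They were listed by symbol and role, with earlier results of these data known.

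The study asked how loss of a lysosomal enzyme changes microglia. Sgsh encodes the lysosomal sulfatase that takes part in heparan sulfate breakdown and that is lost in mucopolysaccharidosis type IIIA. All mice were C57BL/6, either wild type (WT) or Sgsh knockout (SgshKO), and the cells were forebrain microglia sorted as CD11b+, CD45 low and CX3CR1+, so that a bulk library averages over the sorted cells. The age series held 22 libraries: 3 WT and 4 SgshKO at 3 weeks, 2 WT and 2 SgshKO at 4 months, and 4 WT and 7 SgshKO at 8 months. In the antisense experiments, mice were injected 1 time into the cerebral ventricles, and microglia were sorted 14 days after that. WT mice received phosphate-buffered saline (PBS), a control antisense oligonucleotide (ASO, called ntc in the labels), or 1 of 3 targeting ASOs, against Mitf, against Tfeb or against Tfe3, with 4 libraries per group. These 3 targets encode related transcription factors of the MiT/TFE family, which drive lysosomal genes. SgshKO mice received the ntc ASO or ASOs against both Mitf and Tfe3, with 8 libraries per group. The ages of the injected mice and the sexes were not given in the labels. Nothing in the labels says that libraries of a group came from separate animals, so p-values measure the spread between these libraries, which may be technical.

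In this pathway, TGF-beta is secreted in a latent form held by its propeptide, and NRROS on microglia presents the latent complex for release by an integrin. Free ligand brings the type II and type I receptors together. The type I receptor, TGFBR1, then phosphorylates SMAD2 and SMAD3, which enter the nucleus with SMAD4 and act on DNA. SMAD7 is induced by the pathway and blocks its receptors, while SKI and SKIL recruit repressors to SMAD complexes. Microglia depend on this pathway to acquire and keep their tissue-specific gene programme.

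Library totals ran from 8191508 to 27106584 counts in the age series, from 14372015 to 30378870 in the WT ASO libraries and from 12517838 to 30431437 in the SgshKO ASO libraries. Sgsh transcript was present in every SgshKO library. It stood at 20.3 to 25.9 CPM (the share of a gene in the library total, scaled for library composition) in WT against 14.9 to 23.4 in SgshKO at 3 weeks. The ranges were 30.7 to 39.4 against 22.9 to 30.3 at 4 months, and 31.9 to 59.2 against 20.1 to 34.7 at 8 months. Its log2 fold changes were -0.32, -0.40 and -0.74, and only the 8-month value passed (adjusted p = 0.000583, edgeR quasi-likelihood test). Since the groups overlapped at 3 weeks and 8 months, the transcript level gave little check of the genotype labels. The targeted genes were at 3.56% (Mitf), 10.6% (Tfeb) and 19.2% (Tfe3) of their ntc level in WT, and at 20.9% (Mitf) and 47.3% (Tfe3) in SgshKO under the combined ASOs. The 8 microglial markers were all detected in every library and together made up 27491 to 51679 CPM in the age series. The 10 monocyte and neutrophil markers summed to 5.75 to 14.7 CPM in WT of all ages and 6.56 to 33.7 in SgshKO at 3 weeks. At 4 months the SgshKO libraries stood apart, at 2814 in library 1 and 13908 in library 2, and at 8 months they lay between 414 and 5479, with the median at 714, library 1 at 2655 and library 3 at 5479. None of the 10 was at 0 in those 9 libraries. Results are therefore also given without SgshKO library 2 at 4 months, and without SgshKO libraries 1 and 3 at 8 months. The SgshKO libraries that stayed still held these transcripts, at 2814 CPM at 4 months and at least 414 at 8 months. The part of those cells in the results was not tested. The 8 markers of border macrophages, mostly Mrc1, also moved with genotype in their sum. They summed to 55.1 to 76.0 CPM in WT against 83.0 to 109 in SgshKO at 3 weeks, to 9.46 to 10.5 against 71.2 to 124 at 4 months and to 15.9 to 32.1 against 61.3 to 108 at 8 months, and 1 to 4 of the 8 were at 0 in each library. The 6 astrocyte markers, mostly Slc1a3, summed to 143 to 161 CPM in WT against 188 to 249 in SgshKO at 3 weeks. The sums were 198 to 216 against 138 to 195 at 4 months and 285 to 402 against 173 to 291 at 8 months. At 8 months, without SgshKO libraries 1 and 3, 3 of the 6 were called higher in SgshKO and 1 lower, so the sum does not stand for each marker.

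The members are spread over the genome (mm10, positions of the counted transcripts). Tgfb1 lies at chr7:25687002-25705077 on the plus strand, Tgfbr1 at chr4:47353222-47414924 on the plus strand and Tgfbr2 at chr9:116087695-116175363 on the minus strand. Smad3 lies at chr9:63646767-63757994 on the minus strand, while Smad2, Smad4 and Smad7 are all on chromosome 18. Ski lies at chr4:155154075-155222535 on the minus strand, Skil at chr3:31095058-31122923 on the plus strand and Nrros at chr16:32142786-32165594 on the minus strand.

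Relative levels between genes can be read only from values scaled for transcript length, here the authors' length-scaled transcript values (TPM) of the age series. Tgfbr1 had the highest level of the 10 in all 6 groups, with group means from 509.7 to 964 TPM. In WT at 3 weeks it was at 864 ± 40.5 TPM (SD, n = 3), followed by Tgfb1 at 428 ± 50.7, Tgfbr2 at 309.8 ± 18.6, Ski at 236 ± 35.2 and Nrros at 198 ± 18.8. Then came Skil at 103 ± 5.26, Smad3 at 84.4 ± 2.82, Smad7 at 82.4 ± 9.83, Smad4 at 42.7 ± 3.25 and Smad2 at 14.8 ± 1.21. Neighbours in this order whose libraries overlapped were Ski and Nrros, and Smad3 and Smad7. Tgfbr1 thus had more transcript per length than Smad2 and Smad3, whose products its kinase phosphorylates. For Tgfbr2, Ski, Skil and Nrros the TPM table lists another transcript than the count table, and for Nrros the lengths differ widely (2431 against 3710 bases), so its place in the order depends on the transcript chosen.

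**Figure D1:**
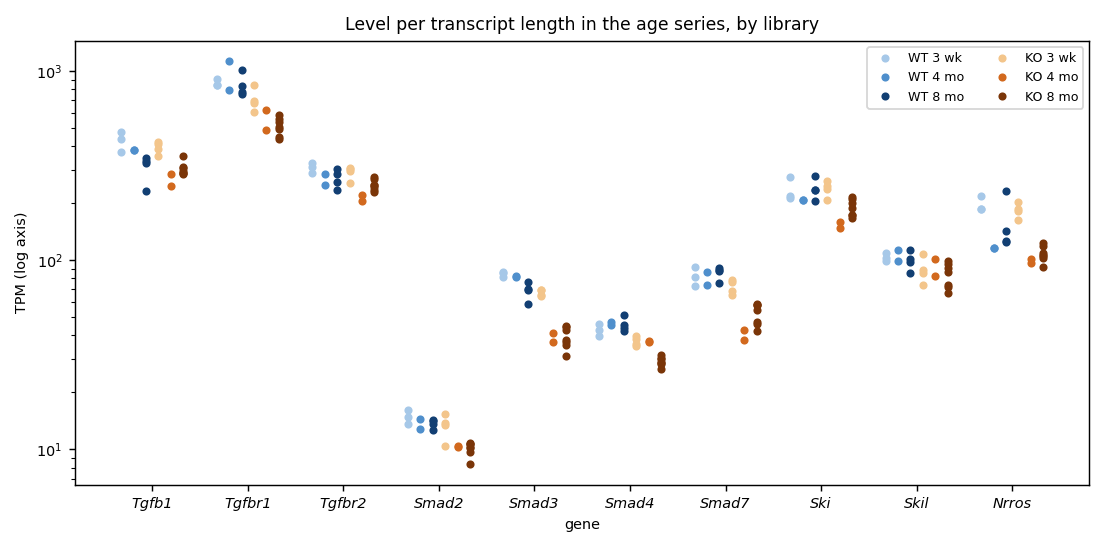
Transcript level per length (TPM, log axis) of the 10 genes in the 22 age-series libraries, 1 point per library, by genotype and age. Tgfbr1 has the highest level, at group means of 509.7 to 964 TPM, and Smad2 the lowest.

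The 250 bases before the start of 3 members are shown, since Tgfbr1 and Smad3 fell together in SgshKO microglia and Nrros was the member lower under the combined Mitf and Tfe3 ASOs. They are from RefSeq on GRCm38.p6, the assembly named mm10 above, read 5′ to 3′ on the strand of the gene. The windows are chr4:47352972-47353221 (plus strand) for Tgfbr1, chr9:63757995-63758244 (minus strand) for Smad3 and chr16:32165595-32165844 (minus strand) for Nrros. Capitals mark matches, on either strand, to CATGTG (the core of the M-box, an element that MITF can bind) and to CAGAC (the SMAD binding element).
Tgfbr1: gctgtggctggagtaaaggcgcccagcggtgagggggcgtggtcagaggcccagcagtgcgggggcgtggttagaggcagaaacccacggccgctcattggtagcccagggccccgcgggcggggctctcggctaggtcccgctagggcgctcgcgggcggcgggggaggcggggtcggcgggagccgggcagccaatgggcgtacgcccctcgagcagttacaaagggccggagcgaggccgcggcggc
Smad3: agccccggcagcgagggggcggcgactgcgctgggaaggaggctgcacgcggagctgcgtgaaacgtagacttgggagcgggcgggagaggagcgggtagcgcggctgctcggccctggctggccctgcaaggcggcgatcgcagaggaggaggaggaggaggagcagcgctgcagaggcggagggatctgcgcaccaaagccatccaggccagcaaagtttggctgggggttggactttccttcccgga
Nrros: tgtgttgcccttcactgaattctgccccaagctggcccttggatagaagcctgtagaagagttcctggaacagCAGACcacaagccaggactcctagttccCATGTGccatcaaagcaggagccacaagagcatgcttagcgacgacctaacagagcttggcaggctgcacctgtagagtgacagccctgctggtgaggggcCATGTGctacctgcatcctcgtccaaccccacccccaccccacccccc
Nrros held CATGTG 2 times, at 149 to 144 and at 48 to 43 bases before the start, and CAGAC 1 time, at 177 to 173 bases. Tgfbr1 and Smad3 held neither, and none of the 6 members with an entry held the E-box CACGTG or the SMAD palindrome GTCTAGAC. Tgfbr2 held CAGAC 1 time, and Tgfb1 and Ski held none of these motifs. Over 32851 windows of the same length, 6.02% held CACGTG, 12.3% CATGTG, 42.2% CAGAC and 0.167% GTCTAGAC, with both strands searched. The windows of Tgfbr1 and Smad3 had 74.8% and 69.2% G and C bases and that of Nrros 58.4%. A match describes letters only. It shows no binding, and the absence of a match says nothing of binding elsewhere.

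The first comparison asked how the pathway's transcripts differ between SgshKO and WT microglia at each age. At 3 weeks no member passed the test. At 4 months Smad3 and Smad7 were lower in SgshKO by 1.96- and 1.88-fold, and Tgfbr1 and Tgfb1 by 1.64- and 1.36-fold. At 8 months the type I receptor, all 3 transducing SMADs, Smad7 and Nrros were lower in SgshKO, by 1.23- to 1.59-fold, while Tgfb1, Tgfbr2, Ski and Skil did not pass. In bulk libraries, fewer cells of a type and less RNA per cell cannot be told apart.

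Tgfb1, the ligand, was at 525, 622 and 660.3 CPM in the WT libraries at 3 weeks and at 591, 529, 634 and 562 in SgshKO. At 4 months it was at 529.9 and 530.0 in WT and at 418 and 362 in SgshKO. At 8 months it was at 465, 487, 452 and 315 in WT, and at 416 (lowest), 458 (median) and 535 (highest) in SgshKO. Only at 4 months were the groups apart, with SgshKO lower. The log2 fold change there was -0.44 ± 0.15 (SE, adjusted p = 0.0448, edgeR quasi-likelihood test, 1.36-fold lower), against -0.06 ± 0.12 at 3 weeks and 0.12 ± 0.10 at 8 months. The 4-month call rested on single libraries: without SgshKO library 2, the one highest in neutrophil transcripts, it was -0.34 (adjusted p = 0.282), and without WT library 1 or 2 the adjusted p was 0.143 or 0.156. WT library 4 at 8 months had the lowest Tgfb1 level of the WT libraries, and without it the 8-month log2 fold change was -0.04.

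Tgfbr1, the kinase receptor that phosphorylates SMAD2 and SMAD3, was at 3388, 3167 and 3105 CPM in WT at 3 weeks against 3216, 2756, 2407 and 2604 in SgshKO. It was at 4172 and 2920.2 in WT against 2415 and 1900.2 in SgshKO at 4 months. At 8 months it was at 3758, 2888, 3073 and 2701 in WT, against a lowest value of 1831, a median of 1997 and a highest of 2349 in SgshKO. All SgshKO libraries at 4 and 8 months lay below all WT libraries of their age, and at 3 weeks the groups overlapped. Its log2 fold changes were -0.23 ± 0.13 (adjusted p = 0.353), -0.72 ± 0.17 (adjusted p = 0.00327, 1.64-fold lower) and -0.59 ± 0.10 (adjusted p = 5.22e-05, 1.51-fold lower). At 4 months the call was lost without WT library 1, which had the highest level (-0.44, adjusted p = 0.134), and without SgshKO library 2 (-0.55, adjusted p = 0.0828). Tgfbr2, the type II receptor that binds the ligand, did not pass at any age, although its 4-month groups did not overlap either. It was at 903 to 1005 CPM in WT and 815 to 1003 in SgshKO at 3 weeks, 755 and 862 against 661 and 710.1 at 4 months, and 710.4 to 920.0 against 768 to 883 at 8 months. Its log2 fold changes were -0.02, -0.24 ± 0.12 (adjusted p = 0.166) and 0.03 ± 0.07 (adjusted p = 0.812). The receptor pair thus differed in that the type I partner passed the test at the later ages and the type II partner did not, although the difference between them was not tested.

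Smad3, the transducer with the largest fold difference, was at 280.1, 272 and 283 CPM in WT at 3 weeks against 222, 244, 244 and 219 in SgshKO. At 4 months the values were 268 and 262 against 128 and 142. At 8 months they were 249, 230.4, 224 and 186 in WT, against a lowest of 106, a median of 136 and a highest of 167 in SgshKO. WT and SgshKO did not overlap at any of the 3 ages, and the gap was narrowest at 3 weeks. The log2 fold changes were -0.26 ± 0.12 (adjusted p = 0.205, edgeR's quasi-likelihood test) at 3 weeks, -0.97 ± 0.16 (adjusted p = 6.74e-05, 1.96-fold lower) at 4 months and -0.67 ± 0.09 (adjusted p = 3.33e-06, 1.59-fold lower) at 8 months. Without SgshKO library 2 the 4-month value was -1.05, and without SgshKO libraries 1 and 3 the 8-month value was -0.72. The SgshKO libraries that stayed also held monocyte and neutrophil markers, at 2814 CPM at 4 months and at least 414 CPM at 8 months. The part of those cells in the Smad3 values was not tested.

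Smad2, the other receptor-activated transducer, was at 78.4 to 90.1 CPM in WT and 62.7 to 89.3 in SgshKO at 3 weeks, with overlap. It was at 72.1 and 80.4 CPM in WT against 61.9 and 61.3 in SgshKO at 4 months (-0.31 ± 0.14, adjusted p = 0.134). The 8-month values were 79.1, 76.9, 79.4 and 68.8 in WT, against 51.5, 64.0 and 66.7 (lowest, median and highest) in SgshKO. The 8-month groups did not overlap, and the difference of -0.29 ± 0.09 (adjusted p = 0.00814, 1.23-fold lower) passed. Smad4, the shared partner of the receptor-activated SMADs, was at 85.2, 101 and 91.0 CPM in WT and 88.5, 87.6, 82.8 and 78.0 in SgshKO at 3 weeks. It was at 101 and 96.4 against 84.0 and 83.7 at 4 months (-0.24 ± 0.11, adjusted p = 0.131). In WT at 8 months the values were 97.5, 93.8, 89.9 and 107, against 62.8, 68.4 and 73.2 (lowest, median and highest) in SgshKO. The 8-month SgshKO libraries were close together and all below WT, and Smad4 had the smallest adjusted p of the 10 members at that age (-0.50 ± 0.06, adjusted p = 8.77e-07, 1.42-fold lower).

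Smad7, the feedback inhibitor and itself a target of the pathway, was at 209.6, 270.1 and 233 CPM in WT and 233, 199, 234 and 205 in SgshKO at 3 weeks, overlapping throughout. At 4 months it was at 209.8 and 244 in WT against 128 and 114 in SgshKO. At 8 months it was at 217, 252, 252 and 251 in WT, against 133, 169 and 183 (lowest, median and highest) in SgshKO. Both older ages showed SgshKO below WT with no overlap. The log2 fold changes were -0.13 at 3 weeks, -0.91 ± 0.15 (adjusted p = 8.14e-05, 1.88-fold lower) at 4 months and -0.58 ± 0.09 (adjusted p = 1.14e-05, 1.49-fold lower) at 8 months. Without SgshKO library 2 at 4 months it was still lower (-0.83, adjusted p = 0.00464).

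Ski and Skil, the corepressors that hold SMAD target genes down, did not pass at any age. At 3 weeks Ski was at 747 to 960.0 CPM in WT and 774 to 944 in SgshKO, and Skil at 453 to 495 and 355 to 501, with overlap. Ski was at 729 and 722 CPM in WT against 585 and 539.7 in SgshKO at 4 months (-0.37 ± 0.14, adjusted p = 0.0689). At 8 months it was at 827, 832, 964 and 697 against 640.1 to 802 (-0.19 ± 0.09, adjusted p = 0.0873). The Ski libraries overlapped at 8 months but not at 4 months. The 8-month Ski value passed once WT library 4 was left out (-0.30, adjusted p = 0.0113) or SgshKO library 1 (-0.24, adjusted p = 0.0485). Skil was at 508 and 445 CPM in WT against 487 and 394 in SgshKO at 4 months (-0.11 ± 0.16). It was at 389 to 495 against 348 to 462 at 8 months (-0.11 ± 0.10, adjusted p = 0.378), and the groups overlapped at both ages.

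Nrros, the anchor of latent TGF-beta on microglia, was at 320.5, 323 and 364 CPM in WT and 344, 340.2, 296 and 319 in SgshKO at 3 weeks. It was at 194 and 199 against 189 and 171 at 4 months. At 8 months it was at 215, 216, 242 and 386 in WT, against 165, 205 and 231 (lowest, median and highest) in SgshKO. WT library 4 at 8 months was far above the other 3, which overlapped the SgshKO range. The 8-month difference was -0.38 ± 0.12 (adjusted p = 0.0121, 1.30-fold lower), and without that library it was -0.17 (adjusted p = 0.118). The Nrros call at 8 months thus held only with that library included.

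**Figure D2:**
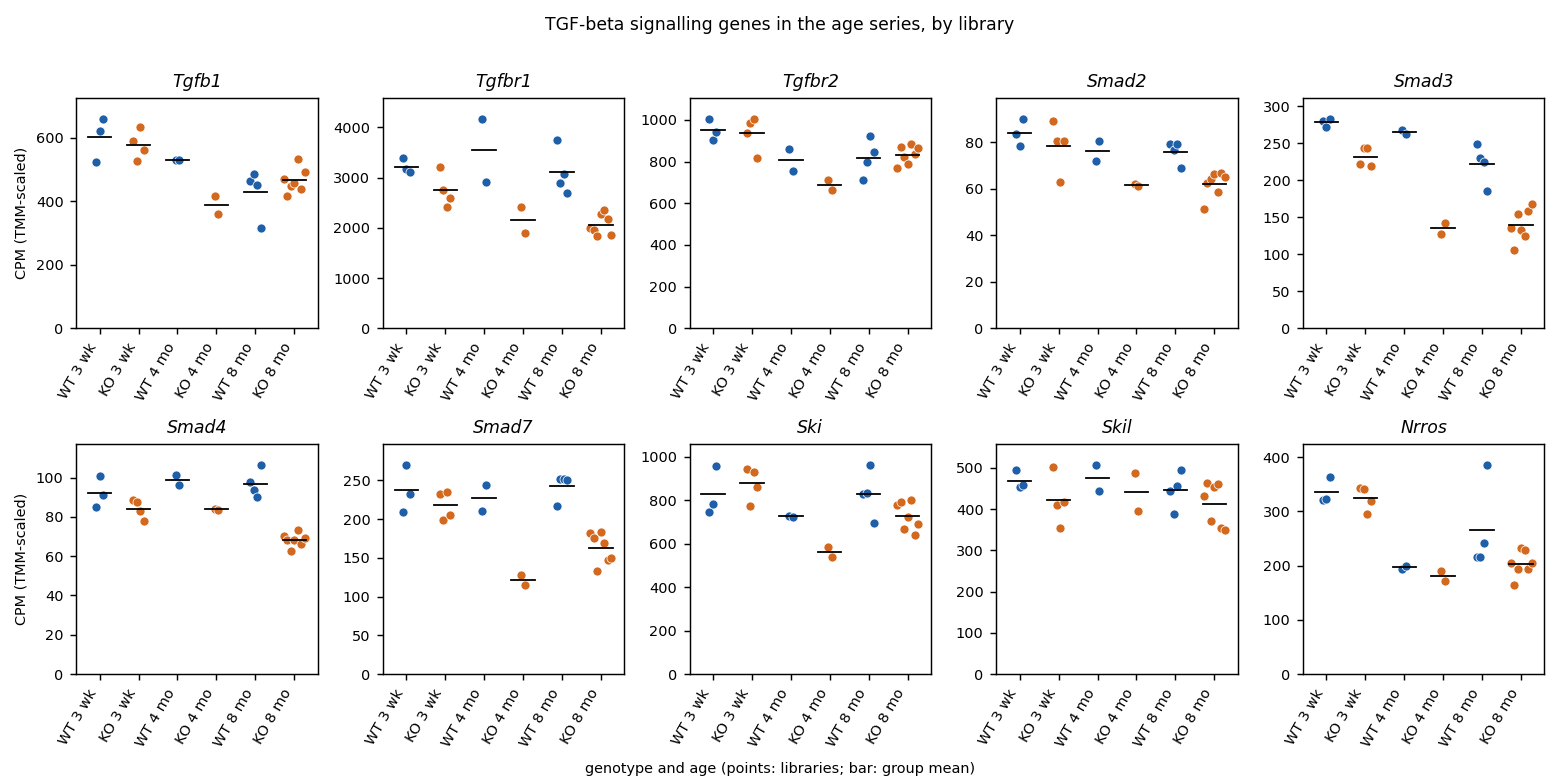
Level of each member (CPM) in the 22 age-series libraries, 1 point per library with the group mean as a bar, by genotype and age. Tgfbr1, Smad2, Smad3, Smad4 and Smad7 separate by genotype at both 4 and 8 months, Smad3 at 3 weeks as well, and Skil overlaps at all 3 ages.

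Counted over the 10 members, 0 were called at 3 weeks, when 9.03% of all genes tested were called. DESeq2 also called 0 members at that age, and Smad3 was the 1 member with an unadjusted p under 0.05, of 2739 genes. At 4 months 4 members were called, all lower, against 19.5% of all genes called and 9.26% called lower. At 8 months 6 were called, all lower, against 40.5% called and 18.9% called lower. Without SgshKO library 2 at 4 months 2 of the 4 stayed, Smad3 and Smad7, and without SgshKO libraries 1 and 3 at 8 months all 6 did. SgshKO and WT libraries did not overlap for 1 member at 3 weeks (22.5% of all genes), for 9 at 4 months (58.1% of all genes) and for 5 at 8 months (25.2% of all genes). The median log2 fold change of the members was -0.11, -0.34 and -0.34 at the 3 ages, beside -0.02, 0.02 and 0.02 over all genes tested. At 4 months all 10 log2 fold changes were negative, and at 8 months 8 were. By kind of gene, the 8-month calls took in 1 of 2 receptors, 3 of 3 transducing SMADs, the inhibitor Smad7 and Nrros, and neither the ligand nor the corepressors. The summed border macrophage markers given above, mostly Mrc1, were higher in SgshKO, without overlap, at each of these ages. At 8 months, without SgshKO libraries 1 and 3, 5 of the 7 tested were called higher and 0 lower. The sum thus does not stand for each marker, and the part of those cells in the members' values was not tested.

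**Figure D3:**
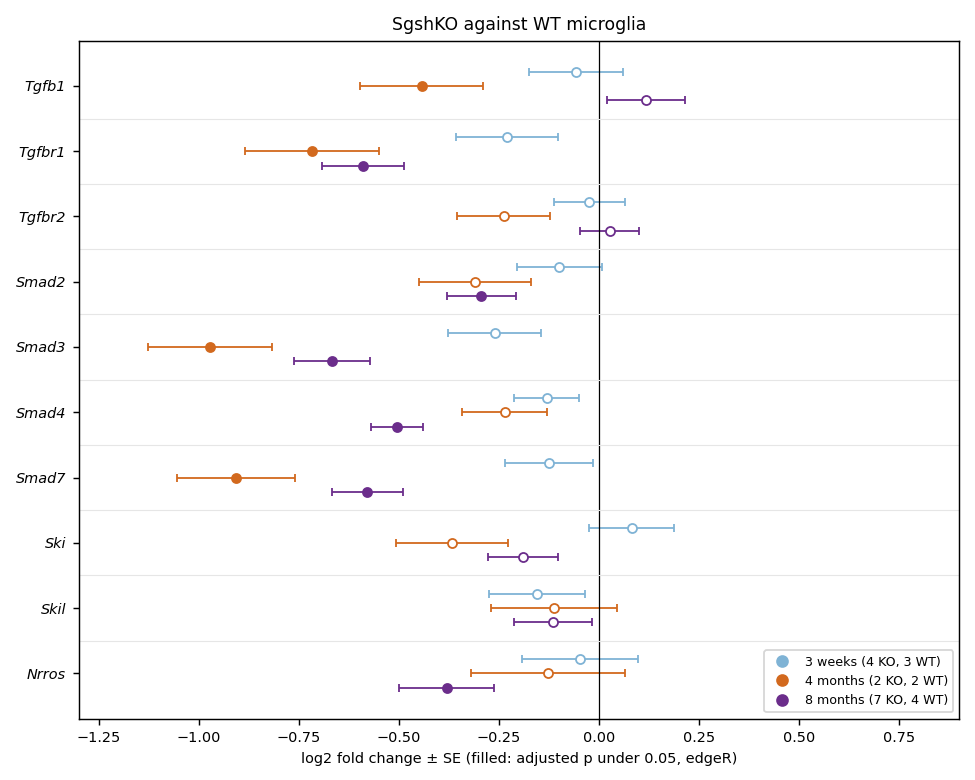
Log2 fold change of each member, SgshKO over WT, at 3 weeks, 4 months and 8 months, with bars of 1 SE on either side. Filled points passed an adjusted p of 0.05: none at 3 weeks, 4 at 4 months and 6 at 8 months.

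Whether the genotype difference itself changed with age was tested as the difference between differences. From 3 weeks to 4 months it became more negative for Smad7 (-0.78 ± 0.18, adjusted p = 0.0216) and Smad3 (-0.71 ± 0.19, adjusted p = 0.0490), 2 of 10 members where 2.52% of all genes were called and 0.895% called lower. From 3 weeks to 8 months it did so for Smad4 (-0.37 ± 0.10, adjusted p = 0.0230) and Smad7 (-0.45 ± 0.14, adjusted p = 0.0462), where 9.25% of all genes were called and 3.26% called lower. Smad3 had -0.41 (adjusted p = 0.0966) in that contrast. These 4 calls were near the threshold. Smad3 lost its call without any 1 of the 11 libraries involved (adjusted p up to 0.160). Smad7 lost its 4-month call without WT library 1 at 3 weeks (adjusted p = 0.0633), WT library 2 at 4 months (adjusted p = 0.163) or SgshKO library 2 at 4 months (adjusted p = 0.156), and its 8-month call without 11 of the 18 libraries (adjusted p up to 0.162). Smad4 lost its call without WT library 1 or 3 at 3 weeks (adjusted p = 0.0918 and 0.0586). Between 4 and 8 months 0 members and 0.391% of all genes were called. DESeq2 called 0 members there as well, and 1641 genes had an unadjusted p under 0.05, among them Tgfb1 (0.56, adjusted p = 0.202 in edgeR's quasi-likelihood test). The 3 contrasts share libraries, so they are not independent of one another.

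Within WT, age moved few members. Nrros was lower at 4 months than at 3 weeks, with 194 and 199 CPM against 320.5 to 364 (-0.77 ± 0.18, adjusted p = 0.0109), 1 of 10 members where 5.21% of all genes were called and 2.60% called lower. Leaving out either 4-month WT library raised its adjusted p to 0.112 or 0.116. Tgfb1 was lower at 8 months than at 3 weeks, 315 to 487 against 525 to 660.3 CPM (-0.49 ± 0.12, adjusted p = 0.00920), 1 of 10 where 7.65% were called and 4.63% called lower. That call was lost without WT library 3 at 3 weeks (-0.42, adjusted p = 0.0724). From 4 to 8 months 0 members were called in WT, by edgeR or DESeq2, where 5.77% of all genes were and 2759 had an unadjusted p under 0.05.

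Within SgshKO, more members moved. From 3 weeks to 4 months 7 of 10 were lower, where 32.7% of all genes were called and 15.2% called lower: Nrros (-0.85), Smad7 (-0.85), Smad3 (-0.78), Ski (-0.64), Tgfb1 (-0.57), Tgfbr2 (-0.45) and Smad2 (-0.35). From 3 weeks to 8 months 8 were lower, where 30.6% were called and 15.1% called lower: Smad3 (-0.73), Nrros (-0.68), Smad7 (-0.42), Tgfbr1 (-0.41), Smad2 (-0.34), Tgfb1 (-0.31), Smad4 (-0.30) and Ski (-0.27). From 4 to 8 months 3 were higher and 1 lower, where 19.8% were called, 8.77% higher and 11.0% lower: Smad7 (0.42, adjusted p = 0.0157), Ski (0.37, adjusted p = 0.0253) and Tgfbr2 (0.28, adjusted p = 0.0395) rose, and Smad4 fell (-0.29, adjusted p = 0.0160). In this step Smad3 stayed near its 4-month level (135 against 140 CPM on average). Smad7 was at 121 ± 9.79 (SD, n = 2) at 4 months and 163 ± 19.5 (SD, n = 7) at 8 months. The difference between Smad3 and Smad7 was not tested. Without SgshKO library 2 at 4 months, 0 of these 4 calls between 4 and 8 months remained (Smad7 0.34, adjusted p = 0.213, and Smad4 -0.30, adjusted p = 0.128). Without SgshKO library 1 at 4 months Smad7 alone remained. The SgshKO libraries at 3 weeks and 4 months serve in several of these contrasts. The monocyte and neutrophil markers given above were at most 33.7 CPM in the first and at least 2814 CPM in the second.

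Other genes of the pathway were described by 5 lists that share no gene with the members. The superfamily receptors and co-receptors held 11 genes tested in the age series, and 0, 0 and 1 were higher and 3, 5 and 4 lower in SgshKO at 3 weeks, 4 months and 8 months, with medians of -0.34, -0.15 and -0.18. The 5 lower at 4 months became 2 without SgshKO library 2, and the medians over the 4 tests that each left out 1 library there ran from -0.39 to -0.21. The percentages of all genes called higher were 5.31%, 10.3% and 21.6% at the 3 ages, and those called lower 3.72%, 9.26% and 18.9%. Eng, endoglin, a co-receptor for TGF-beta and bone morphogenetic proteins, was lower at all 3 ages. It was at 302 CPM on average in WT against 151 in SgshKO at 3 weeks (-1.0 ± 0.11, adjusted p = 9.43e-07), and its log2 fold changes were -1.56 ± 0.15 at 4 months and -1.26 ± 0.09 at 8 months. Acvr2b, an activin type II receptor, was lower by -0.53 ± 0.09, -1.21 ± 0.13 and -1.52 ± 0.07. Acvrl1, a type I receptor, was lower at 3 weeks (-0.62), Acvr1 at 4 months (-0.76) and Acvr2a at 8 months (-0.87). Acvr1 lost its call without SgshKO library 2 (-0.54, adjusted p = 0.0553). Bambi, a pseudoreceptor, was higher at 8 months (1.25, adjusted p = 0.0376) but lost the call in 8 of the 11 tests that left out 1 library (adjusted p up to 0.124). The 7 markers of endothelial cells and pericytes, which express Eng and Acvrl1, summed to 61.7 to 76.8 CPM in WT against 48.8 to 56.2 in SgshKO at 3 weeks, to 55.7 to 74.0 against 34.6 to 39.7 at 4 months and to 79.8 to 83.6 against 38.4 to 59 at 8 months. Singly, 5 of these markers were tested. At 8 months, without SgshKO libraries 1 and 3, 3 of the 5 were called higher in SgshKO and 2 lower. The sums thus do not stand for each marker, and the part of those cells in the Eng and Acvrl1 values was not tested. Without SgshKO library 2 at 4 months 2 of the 11 were lower, without either WT library 4, and without SgshKO libraries 1 and 3 at 8 months 4.

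The list of ligands and activation genes held 11 genes tested, of which 0, 1 and 3 were higher and 2, 1 and 4 lower, with medians of 0.00, 0.27 and 0.48. The 4-month median was -0.16 without SgshKO library 2, 0.01 without WT library 1 and 0.84 without WT library 2, so its sign and size rested on single libraries. The 1 lower gene there became 0 without WT library 1 or SgshKO library 2, and the 1 higher became 0 without WT library 2. Itgav, the integrin alpha chain of the complexes that release TGF-beta, was lower at all 3 ages (-0.66 ± 0.12, -0.63 ± 0.15 and -0.75 ± 0.09). Its 4-month call was lost without WT library 1 (adjusted p = 0.0998) or SgshKO library 2 (adjusted p = 0.0960). Thbs1, thrombospondin 1, which can activate latent TGF-beta, was higher at 4 months (1.41 ± 0.34, adjusted p = 0.00451) and 8 months (1.52 ± 0.23, adjusted p = 6.65e-06). Without WT library 2 at 4 months its adjusted p was 0.0691. Emilin1, a matrix glycoprotein, was lower at 8 months (-1.65, adjusted p = 0.00012). Ltbp3, a latent TGF-beta binding protein, was lower at 3 weeks (-0.78, adjusted p = 0.0405) and 8 months (-0.49, adjusted p = 0.0474), but the 3-week call was lost in 6 of 7 tests that left out a library and the 8-month call in 7 of 11 (adjusted p up to 0.184). Fbn1 and Itgb8 passed at 8 months but averaged under 1 CPM in both groups.

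Of 26 other Smads, Smad modifiers and co-regulators, 2, 1 and 3 were higher and 1, 5 and 14 lower, with medians of -0.11, -0.04 and -0.28. Without SgshKO library 2 at 4 months 3 were lower and the median was -0.15, without WT library 2 the median was -0.12, and without WT library 1 the median was -0.01 and the 1 higher became 0. Smurf1, a ubiquitin ligase that works with SMAD7 on receptors, was lower at all 3 ages (-0.46 ± 0.09, -0.55 ± 0.12 and -0.68 ± 0.07). Tgif2, a SMAD corepressor, was lower at 4 months (-1.50 ± 0.22) and 8 months (-1.35 ± 0.12), whereas its relative Tgif1 was higher at 8 months (0.49 ± 0.11, adjusted p = 0.000709). Fkbp1a, which binds type I receptors and holds them inactive, was higher at 8 months (0.61 ± 0.09, adjusted p = 3.24e-06) and 4 months (0.62 ± 0.14, adjusted p = 0.00212). Its 4-month call was lost without WT library 1 (0.46, adjusted p = 0.0655). Tgif1 (0.41, adjusted p = 0.0491) and Fkbp1a (0.33, adjusted p = 0.0445) were also called at 3 weeks, but Tgif1 lost that call in 6 of 7 tests that left out a library and Fkbp1a in 7 of 7. Nedd4l, another ubiquitin ligase, was lower at 8 months (-0.65), and Tgfbrap1, a receptor-associated protein, at 4 months (-0.64). Smad6, an inhibitory SMAD of the bone morphogenetic protein branch, was higher at 8 months (0.72, adjusted p = 0.0238). It lost the call without WT library 1 (adjusted p = 0.0964), without WT library 4 (adjusted p = 0.120) and without SgshKO libraries 1 and 3 (adjusted p = 0.0724).

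A further list held 18 genes taken as general TGF-beta induced targets. Whether TGF-beta induces each of them in microglia was not tested. Of these, 2, 1 and 6 were higher and 0, 5 and 3 lower, with medians of -0.18, 0.03 and 0.27. Calls lay on both sides at 4 and 8 months. The 5 lower at 4 months became 2 without WT library 1, 2 without WT library 2 and 1 without SgshKO library 2, with medians of 0.13, -0.02 and -0.02. At 8 months the 6 higher became 4 without SgshKO libraries 1 and 3, and 4 without WT library 4. Bhlhe40, a transcription factor, was at 3.53 CPM on average in WT against 33.5 in SgshKO at 4 months (3.26 ± 0.38, adjusted p = 9.4e-07) and at 0.346 against 25.8 at 8 months (6.22 ± 0.33, adjusted p = 1.83e-13). Fn1, fibronectin, and Cdkn1a, a cell cycle inhibitor, were higher at 8 months (3.43 and 1.48). Itgae, an integrin chain, was lower at 8 months (-1.61), and Ldlrad4, a negative regulator of the pathway, was lower at 4 months (-0.80) and 8 months (-0.34). Pmepa1, an inhibitor induced by the pathway, was lower at 8 months (-0.42, adjusted p = 0.00817), and without WT library 2 or 3 its adjusted p was 0.0622 or 0.0606. Tgm2, a transglutaminase, was lower at 4 months (-0.84, adjusted p = 0.0155), and without WT library 1 or SgshKO library 2 its adjusted p was 0.149 or 0.225. Cdkn2b, called lower at 4 months, was at 0 in both SgshKO libraries and averaged 0.549 CPM in WT, near the limit of these libraries. Id2 was higher at 3 weeks (1.0, adjusted p = 0.00548).

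The list of microglial genes that depend on TGF-beta held 21 genes tested. At 3 weeks none was higher and 5 were lower (median -0.12). At 4 months none was higher and 15 were lower (median -0.54), and at 8 months 2 were higher and 15 lower (median -0.40). Of all genes tested, 5.31%, 10.3% and 21.6% were called higher at the 3 ages, and 3.72%, 9.26% and 18.9% lower. Tmem119, a microglial surface marker, was lower by -0.44 ± 0.09, -1.14 ± 0.12 and -1.02 ± 0.08. Slc2a5, a fructose transporter, was lower by -0.76, -1.60 and -0.99, and Olfml3 by -0.46, -0.94 and -0.39. The 3-week call of Slc2a5 was lost in 4 of 7 tests that left out a library (adjusted p up to 0.0574). At 4 and 8 months Crybb1 was lower by -1.31 and -1.36, Cx3cr1, the fractalkine receptor used in the sort, by -0.94 and -0.69, P2ry12 by -0.83 and -0.79, and Sall1, a microglial transcription factor, by -0.82 and -0.38. C1qa (0.56) and Fcrls (0.35) were higher at 8 months, and Pros1 was near 0 (0.01). The number lower at 4 months was 8 without SgshKO library 2 (11.0% of all genes called), 8 without WT library 1 and 13 without WT library 2, and at 8 months it was 15 without SgshKO libraries 1 and 3. Several genes of this list are also used as microglial markers here. At 4 months the summed microglial markers lay between 41298 and 46090 CPM in WT and between 27491 and 31684 in SgshKO. At 8 months the sum lay between 37954 and 45578 in WT and between 29936 and 33338 in SgshKO. At that age, without SgshKO libraries 1 and 3, 2 of the 8 markers were called higher in SgshKO and 5 lower. The sum thus does not stand for each marker.

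**Figure D4:**
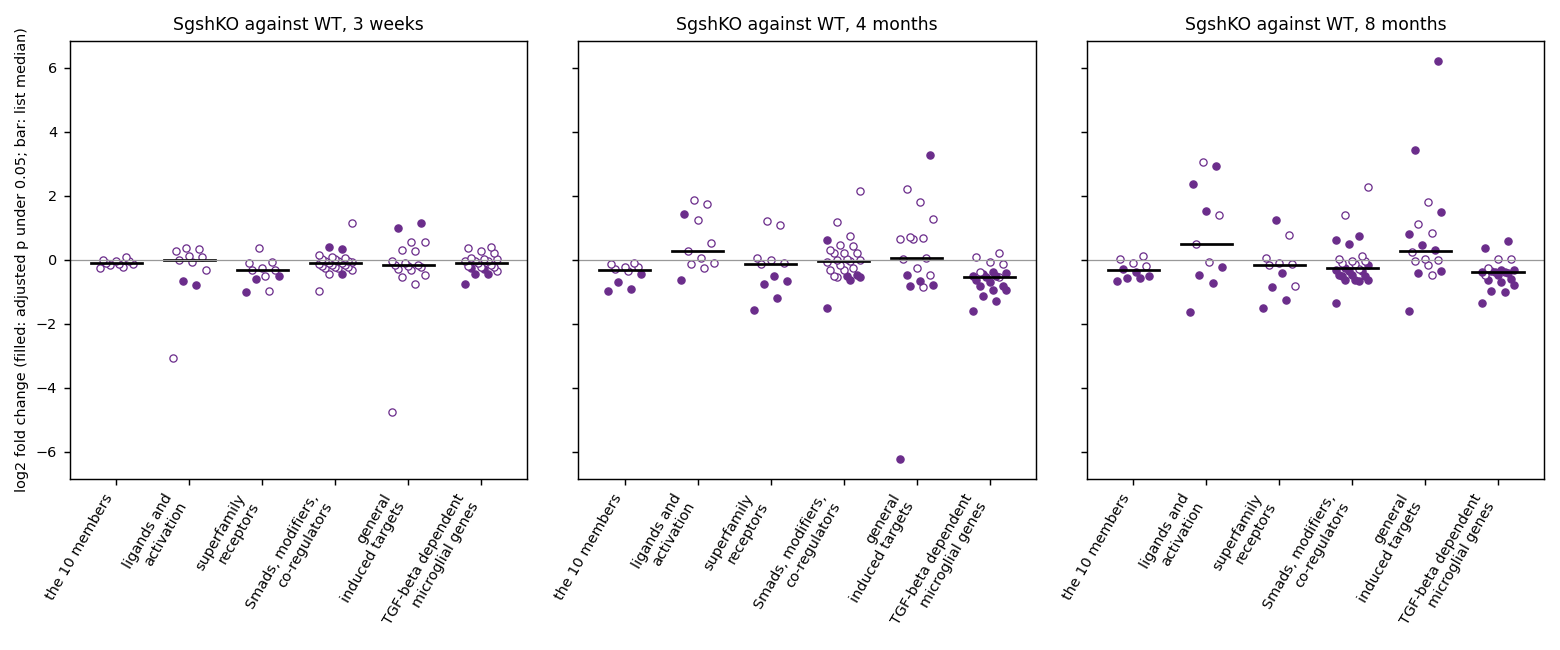
Log2 fold change, SgshKO over WT, of the members and of the genes of the 5 pathway lists at the 3 ages, 1 point per gene (filled where called) with the median as a bar. The microglial genes that depend on TGF-beta lie mostly below 0 at 4 and 8 months (15 of 21 called lower at each). Of all genes, 9.26% and 18.9% were called lower at these ages. The general targets lie on both sides.

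The antisense experiments asked whether lowering each MiT/TFE factor changes the same transcripts. The ntc ASO against PBS changed 0 members and 0% of all genes, with 415 genes at an unadjusted p under 0.05, and DESeq2 called 2 genes and 0 members. Under the Mitf ASO 1 member passed, Smad7, where 11.0% of all genes were called. Under the Tfeb ASO 0 passed (0.778% of all genes) and under the Tfe3 ASO 0 passed (2.16%). In the SgshKO mice 1 member passed under the combined Mitf and Tfe3 ASOs, Nrros (9.33% of all genes). DESeq2 called 0 members under the Tfeb and Tfe3 ASOs and 2 under the Mitf ASO. Over all 8 comparisons the members' log2 fold changes lay between -0.24 and 0.20.

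In the WT libraries Smad7 was at 166, 178, 190.4 and 171 CPM under PBS and 156, 162, 197 and 174 under ntc. It was at 139.7, 143, 176 and 153 under the Mitf ASO, at 152, 154, 171 and 152 under the Tfeb ASO, and at 148, 135, 187 and 157 under the Tfe3 ASO, each in the order of the 4 numbers (grp 1 to 4) in the labels. Compared within a number, all 4 Mitf ASO libraries were below their ntc partner, although the groups overlapped. The log2 fold change was -0.17 ± 0.05 (adjusted p = 0.0348) under the Mitf ASO, -0.13 ± 0.05 (adjusted p = 0.268) under the Tfeb ASO and -0.14 ± 0.05 (adjusted p = 0.170) under the Tfe3 ASO. These share the ntc libraries. The Smad7 call was lost without any 1 of the 8 libraries (adjusted p up to 0.137), and without the number as a block its adjusted p was 0.460. Between the Mitf and Tfeb ASOs Smad7 differed by -0.05 ± 0.05 (adjusted p = 0.669) and between the Mitf and Tfe3 ASOs by -0.03 ± 0.05 (adjusted p = 0.804).

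Tgfbr1 was at 3003, 4684, 5111 and 4201 CPM under PBS and 3897, 4322, 4454 and 4563 under ntc. It was at 3153, 3586, 3889 and 4074 under the Mitf ASO, 3399.9, 3873, 3614 and 3989 under the Tfeb ASO, and 3776, 4551, 4349 and 4649.6 under the Tfe3 ASO. Within each number, the Mitf and Tfeb ASO libraries were below ntc, and those of the Tfe3 ASO lay on both sides. The log2 fold changes against ntc were -0.23 ± 0.08 (adjusted p = 0.0536), -0.21 ± 0.08 (adjusted p = 0.210) and 0.01 ± 0.08 (adjusted p = 0.982), none of which passed. With DESeq2 (adjusted p = 0.0349), or with only the groups compared in the fit (adjusted p = 0.00190), the Mitf ASO value of Tgfbr1 did pass.

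Tgfb1 was at 596, 625, 610.3 and 607 CPM under ntc, at 501, 548, 585 and 599 under the Mitf ASO and at 559, 556, 497 and 587 under the Tfe3 ASO, so that every Tfe3 ASO library was below every ntc library. It was the 1 member whose groups did not overlap there, as for 4.68% of all genes. Its log2 fold change was -0.15 ± 0.06 (adjusted p = 0.178) under the Tfe3 ASO, -0.13 ± 0.06 (adjusted p = 0.158) under the Mitf ASO and 0.05 ± 0.06 (adjusted p = 0.697) under the Tfeb ASO. Smad3 was at 249, 204, 170.2 and 214 CPM under ntc and at 238, 179, 159 and 188 under the Mitf ASO (-0.13 ± 0.05, adjusted p = 0.129). All 10 log2 fold changes were negative under the Mitf ASO, with a median of -0.10 beside -0.01 over all genes. Between the ASOs themselves 0 members were called in 3 comparisons, where 3.53% (Mitf against Tfeb), 3.76% (Mitf against Tfe3) and 1.62% (Tfeb against Tfe3) of all genes were. DESeq2 called 1, 1 and 2 members in these comparisons. Genes with an unadjusted p under 0.05 numbered 1478 and 1711 in the Tfeb and Tfe3 ASO comparisons with ntc, and 1829, 1621 and 1935 in those 3.

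**Figure D5:**
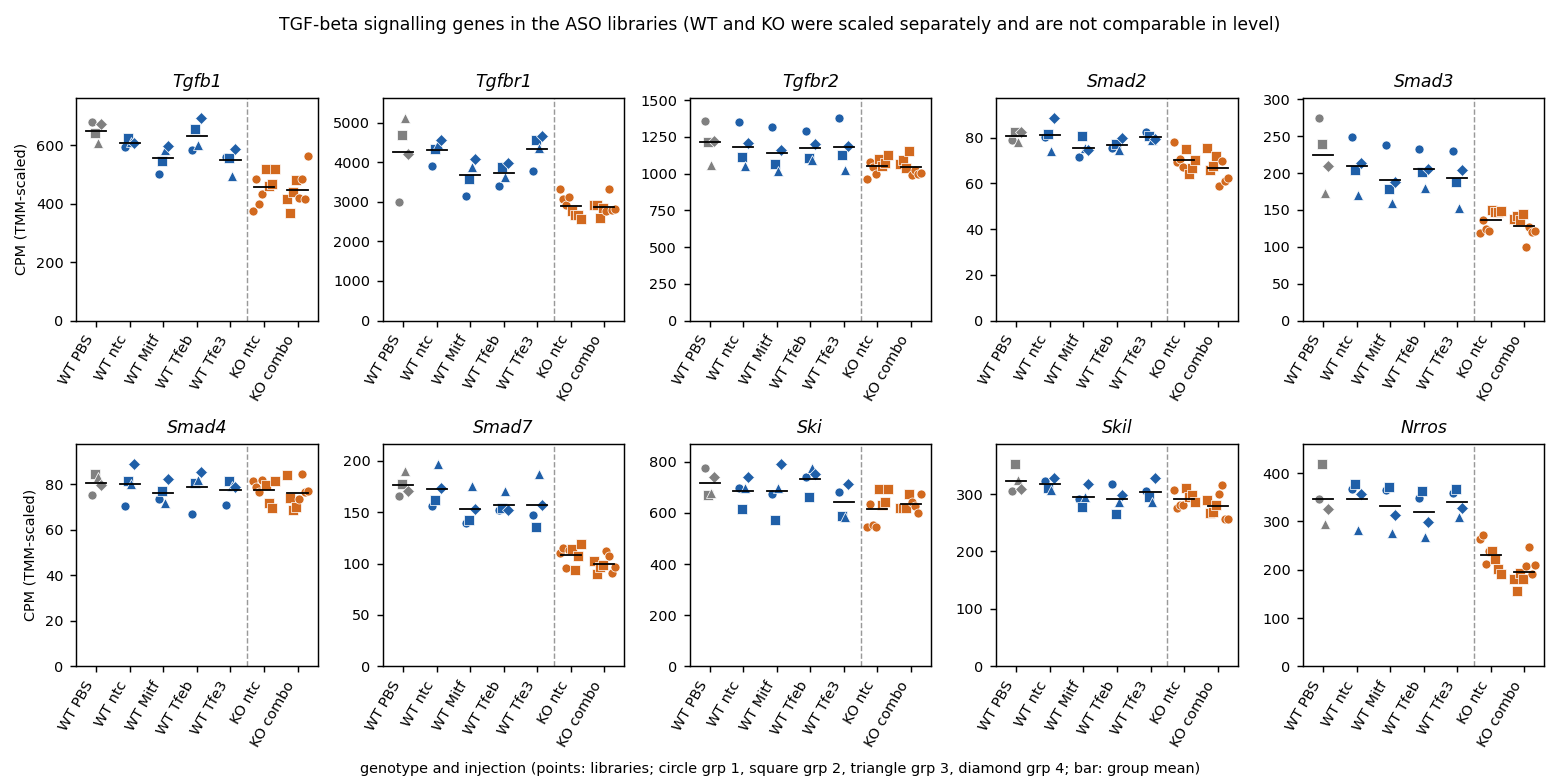
Level of each member (CPM) in the 20 WT and 16 SgshKO antisense libraries, 1 point per library with the group mean as a bar, and the marker shows the grp number of the labels (circle 1, square 2, triangle 3, diamond 4). The WT and SgshKO libraries, divided by the dashed line, were scaled separately. Smad3 in WT follows the number (grp 1 highest, grp 3 lowest) more than the treatment.

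In SgshKO mice the labels divide the 16 libraries into grp 1 and grp 2, with 4 libraries of each treatment in each. Nrros was at 263, 271, 211 and 239 CPM under ntc and 209, 248, 191 and 209 under the combined ASOs in grp 1, and at 239.7, 223, 200.4 and 191 against 181, 155, 193 and 180.0 in grp 2. The treated libraries tended lower in both, with overlap. The log2 fold change was -0.24 ± 0.07 (adjusted p = 0.0341). It was -0.19 (adjusted p = 0.293) in grp 1 alone, -0.28 (adjusted p = 0.0746) in grp 2 alone and had an adjusted p of 0.141 without grp in the fit. Leaving out 1 library gave -0.27 to -0.21, and 10 of the 16 such tests lost the call (adjusted p up to 0.0786). With the number within grp as a block, the value was -0.23 (adjusted p = 0.0196). In WT, where each factor was lowered alone, Nrros had -0.06, -0.12 and -0.01 under the Mitf, Tfeb and Tfe3 ASOs, and none passed. Smad7 had -0.13 ± 0.06 (adjusted p = 0.160) and Smad3 -0.09 ± 0.04 (adjusted p = 0.218) under the combined ASOs. Tgfbr1 was at 2574 to 3323 CPM under ntc and 2581 to 3327 under the combined ASOs (-0.00 ± 0.05, adjusted p = 0.966). The 6 monocyte and neutrophil markers listed in this table summed to 4.14 to 40.8 CPM in grp 1 and 70.0 to 520 in grp 2, and their part in the Nrros value was not tested.

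The grp of the labels, whose meaning they do not state, moved some members more than any ASO did. In WT, Smad3 was at 229.7 to 274 CPM in grp 1 and 152 to 180.4 in grp 3, without overlap, and at 179 to 239 in grp 2 and 188 to 214 in grp 4. The number accounted for 78.8% of the sum of squares of log2 CPM and treatment for 14.1%. For Tgfbr2 the shares were 90.4% and 4.76%, with 1292 to 1377 CPM in grp 1 and 1015 to 1091 in grp 3, and for Nrros they were 83.3% and 6.94%. Smad7 went the other way, with grp 3 the highest under each of the 5 treatments (171 to 197 CPM). Treatment took the larger share for Tgfb1 (59.5% against 16%), Skil (37.7% against 12.5%) and Smad2 (34.7% against 27.4%). In SgshKO, Smad3 was at 99.7 to 136 CPM in grp 1 and 137 to 149.8 in grp 2, with 66.2% of the sum of squares from grp and 8.68% from treatment. Treatment took more than grp there for Smad7 (25.4% against 1.81%), Skil (13.2% against 1.06%) and Smad2 (12.3% against 6.24%).

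Among the pathway lists, Eng was lower under the Mitf ASO (-0.42 ± 0.06, adjusted p = 0.000224) and the Tfe3 ASO (-0.26 ± 0.06, adjusted p = 0.0284), and higher under the combined ASOs in SgshKO (0.32 ± 0.08, adjusted p = 0.0162). The Tfe3 ASO call of Eng was lost in 7 of the 8 tests that left out a library (adjusted p up to 0.101). Acvr2a was also lower under the Mitf ASO (-0.36, adjusted p = 0.0141), as were Itgav (-0.21, adjusted p = 0.0184) and Ltbp3 (-0.62, adjusted p = 0.0267). These lost the call in 3, 5 and 7 of the 8 tests that left out a library. Tgif2 (-0.28) passed too, as did Smad5 (-0.22) and Smad1 (-0.17), transducers of the bone morphogenetic protein branch, and they lost the call in 5, 6 and 8 of the 8. Ldlrad4 was lower under the Mitf ASO (-0.29) and the Tfe3 ASO (-0.23), and Tgm2 was higher under all 3 (0.31, 0.33 and 0.32). In WT the comparisons with ntc all share the same ntc libraries, so a gene's values under several ASOs are not independent of one another. Without single libraries the Ldlrad4 call under the Tfe3 ASO was lost in 2 of 8 tests, and those of Tgm2 under the Tfeb and Tfe3 ASOs in 8 and 6 of 8. Of the 21 microglial genes, 1 was higher and 8 lower under the Mitf ASO (median -0.18 beside -0.01 over all genes, with 5.77% called higher and 5.21% lower), none and none under the Tfeb ASO, and 1 and 3 under the Tfe3 ASO (1.46% and 0.701% of all genes). Cx3cr1 (-0.30, adjusted p = 8.91e-05) and Slc2a5 (-0.33, adjusted p = 0.00124) were lower under the Mitf ASO. Under the combined ASOs in SgshKO 5 of the 21 were higher and 1 lower (median 0.04 beside 0.00, with 4.84% called higher and 4.50% lower). Siglech, a microglial lectin (0.46, adjusted p = 0.000283), and Sparc (0.37, adjusted p = 1.06e-05) were among those higher. The WT and SgshKO antisense experiments were normalised separately, and their difference was not tested.

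Over the 22 age-series libraries, which differ in genotype, age and neutrophil content, the genes most like each member in log2 CPM were given by Pearson's r as a description. For Smad3 they were Anks6 (0.97), Cd276 (0.95) and Kcnk12 (0.95). In the 20 WT ASO libraries the same pairs had -0.01, 0.92 and -0.11, so of the 3 only Cd276 was alike in both sets. In the 16 SgshKO ASO libraries they had 0.34, 0.64 and -0.60. The first gene of 5 other members is given with its r in the age series, the WT ASO and the SgshKO ASO libraries, in that order. For Nrros it was Bach1 (0.94, 0.48 and 0.56), for Smad4 Map4k5 (0.94, 0.64 and -0.36) and for Tgfbr1 Pdlim5 (0.93, 0.69 and 0.42). For Smad7 it was Arhgap27 (0.92, 0.67 and 0.12) and for Tgfbr2 Apbb1ip (0.82, 0.93 and 0.84), so the sign held in all 3 sets for 4 of these 5 pairs. Among the members, the closest pairs in the age series were Smad2 with Smad3 (0.81), Tgfbr1 with Smad4 (0.80) and Tgfbr1 with Smad3 (0.80). The pair of Tgfbr1 and Smad3 had -0.45 in the WT ASO libraries, where that of Tgfbr2 and Smad3 had 0.93. Libraries of a group share genotype, age or grp, so these values carry no test.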

How the data were processed

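RNA sequencing of sorted forebrain microglia gave 58 libraries in 13 groups. The authors deposited read counts per gene for all libraries, TPM for the age series and a normalised, batch-corrected signal for the antisense libraries. Per the labels' protocols, polyadenylated RNA was made into strand-marking libraries and sequenced single-end on 1 of 2 instruments, with 1 of 2 RNA kits. The submitters' processing notes name mm10, STAR 2.5.3a, kallisto 0.44.0, HOMER 4.11, DESeq2 1.36.0 and R 4.2.3, without their roles, so which tool made which table is not given in the sources used here. The deposited antisense tables hold no gene with a mean count under 7.05 (WT) or 39.25 (SgshKO), so a filter preceded any test there.

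Each count table was fitted on its own in R 4.3.3, with edgeR 4.0.16 and its quasi-likelihood F test, after TMM scaling and the filterByExpr filter at a minimum count of 10. This left 14309 of 24940 genes in the age series, and all 10277 and 10589 listed genes in the WT and SgshKO antisense tables. The p-values were adjusted by Benjamini-Hochberg over all genes tested, a gene was called at 0.05, and 20 comparisons were made. The models held genotype and age, or treatment and the grp number of the labels. In the WT antisense libraries the grp number equals the replicate number, and 38 of 40 pairs of same-numbered libraries of different treatments deviated together from their group means (correlations over 0.1, range -0.0333 to 0.640). The SE was taken from the fold change and its F value. CPM are TMM-scaled, and log2 CPM for likeness used a prior count of 2. limma 3.58.1, DESeq2 1.42.0, other normalisations, filters, covariates and left-out libraries served as alternatives. Leaving out SgshKO libraries 1 and 3 at 8 months together, and counting the lists without single libraries, were chosen after seeing the data. No 2 libraries of a group held identical counts. The scripts were tested on simulated data, in which 50 genes per fold size were changed: 56% of genes changed 1.5-fold were recovered for SgshKO against WT at 8 months (14309 genes), 10% at 4 months (14309 genes), 68% for the Mitf ASO (10277 genes) and 86% for the combined ASOs (10589 genes). Far fewer genes were changed there than the real tests called (5793 at 8 months and 2794 at 4 months). The adjustment was therefore stricter in the simulation, and these shares are not those of the real tests.

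The 10 members and the gene lists were chosen with earlier results of these data known. All 10 members are named. From each list, in each comparison of SgshKO with WT and each comparison among the ASOs and ntc, up to 3 called genes in each direction with the largest change are named, and for each member the 3 most alike genes were computed. Not every gene that this choice names is reported here. P2ry12 and Pros1 fall outside it and were picked after their values were seen, as were values of listed genes, such as Sall1 in SgshKO against WT, in comparisons where the choice does not name them. Gene names are those in the tables, and promoter windows are from RefSeq on GRCm38.p6, where 6 of the 10 members had an entry.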

Additional observations from a re-analysis of the deposited data

Results flagged for a closer look

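The libraries of each group of 4 or more were searched for a single member value far from the rest (Dixon's test at 95%). It marked 4 of the 100 groups tested, and chance marks about 1 in 20. Nrros in WT library 4 at 8 months stood at 386 CPM, against 215 to 242 in the other 3 WT libraries. Smad7 in WT library 1 at 8 months was at 217 CPM against 251 to 252. In the WT antisense libraries, Smad7 in Tfeb ASO library 3 (grp 3) was at 171 CPM against 152 to 154. In SgshKO, Tgfbr1 in library 2 of grp 1 under the combined ASOs was at 3327 CPM, against 2581 to 2923 in the other 7 treated libraries.

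The genotype difference itself differed between ages for 3 members in 4 tests of the difference (edgeR's quasi-likelihood test). From 3 weeks to 4 months it shifted by -0.71 on the log2 scale for Smad3 (adjusted p = 0.0490) and by -0.78 for Smad7 (adjusted p = 0.0216). From 3 weeks to 8 months it shifted by -0.37 for Smad4 (adjusted p = 0.0230) and by -0.45 for Smad7 (adjusted p = 0.0462). Of all genes, 2.52% were called in the first contrast (0.895% lower) and 9.25% in the second (3.26% lower). All 4 calls were near the threshold and were lost without single libraries, as given above.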

How the results depend on the processing

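Of 3400 recalculated member values (200 values under up to 76 settings in all), 3255 kept their side of the threshold, 111 lost a call and 34 gained one. Among those that kept their side, 192 uncalled values changed sign, and 0 called values changed sign. At 8 months Tgfbr1, Smad2, Smad3, Smad4 and Smad7 stayed lower in SgshKO in all 20 alternatives, and at 4 months Smad3 and Smad7 in all 12. The limits are the number of libraries, 2 per group at 4 months, and calls near the threshold. With log2(TPM + 1) in limma, the 4-month values of Smad4 (-0.31, adjusted p = 0.0371) and Ski (-0.45, adjusted p = 0.0439) passed. That scale moved the 8-month median over all genes from 0.02 to -0.11, and the calls from 3090 higher and 2703 lower to 2258 and 4091.

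Counts of members called changed as follows. With RLE factors, the shifts of the genotype difference from 3 weeks to 4 and to 8 months each gave 1 member in place of 2, and without a filter on low counts the second gave 1. With only the groups compared in the fit, SgshKO against WT at 3 weeks gave 1 in place of 0, WT at 8 months against 3 weeks 0 in place of 1, the Mitf ASO 2 in place of 1, the Tfeb ASO 1 in place of 0, and Mitf against Tfe3 and Tfeb against Tfe3 1 each in place of 0. With the Ddx3y minus Xist covariate for sex, WT at 8 months against 3 weeks gave 0 in place of 1. That covariate was not run for the antisense tables, where 1 of the pair is not listed. With TPM + 1 or TPM + 0.1, SgshKO at 8 against 4 months gave 1 in place of 4. DESeq2 gave 2 for the Mitf ASO in place of 1, and 1, 1 and 2 for Mitf against Tfeb, Mitf against Tfe3 and Tfeb against Tfe3 in place of 0. The Mitf ASO gave 0 with a mean count of at least 50, with the batch-corrected signal, or with PBS library 4 in grp 3 (as its column names it), and that signal gave 1 for Mitf against Tfe3. The combined ASOs gave 0 without grp, in grp 1 alone and in grp 2 alone. The cause was not tested, except that settings with fewer libraries hold less data.

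In the age series, same-numbered libraries did not deviate together (correlations -0.171 to 0.115), so the numbers were not used to pair libraries. With them as a replicate block all the same, the shifts to 4 and 8 months gave 1 each, WT at 8 months against 3 weeks gave 2 and SgshKO at 8 against 4 months gave 1. Without the replicate block in the WT antisense libraries the Mitf ASO gave 0 members, and the genes called fell to 211 from 1128 (Mitf ASO), 9 from 80 (Tfeb ASO) and 29 from 222 (Tfe3 ASO), and in the 3 comparisons between ASOs to 33 from 363, 100 from 386 and 7 from 167. In SgshKO, same-numbered libraries within grp had correlations of 0.0839 to 0.612 (5 of 8 over 0.1), and the block within grp gave 1 member, as without it.

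Leaving out 1 library gave 2 to 4 members for SgshKO against WT at 4 months (4 with all libraries) and 6 to 7 at 8 months (6). It gave 0 to 1 for the shift to 4 months (2), 0 to 2 for the shift to 8 months (2), 0 to 1 in WT at 4 months (1) and 0 to 2 at 8 months (1), both against 3 weeks. Within SgshKO it gave 5 to 8 (7), 0 to 4 (4) and 6 to 9 (8) for 4 months against 3 weeks, 8 against 4 months and 8 months against 3 weeks. It gave 0 in each test of the Mitf ASO (1), 0 to 1 for Mitf against Tfeb and Tfeb against Tfe3 (0 each), and 0 to 1 for the combined ASOs (1).

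Genes called over all also moved by more than 1.5 times. DESeq2 called 692 for the shift to 4 months against 361, 168 for that from 4 to 8 months against 56, 213 for the Tfeb ASO against 80, 403 for the Tfe3 ASO against 222, 573 for Mitf against Tfeb against 363 and 429 for Tfeb against Tfe3 against 167. The shift from 4 to 8 months also gave 131 without a filter, 131 with TPM + 1, 21 with the replicate block and 22 with only the groups compared, and the shift to 4 months 680 with TPM + 1. The block gave 1406 for SgshKO at 8 against 4 months (2832), the sex covariate 463 for WT at 8 months against 3 weeks (1094), and a fit of only the groups compared 1518 for WT at 4 months against 3 weeks (746), 450 for the Tfeb ASO and 359 for Tfeb against Tfe3. The combined ASOs gave 452 without grp, 146 in grp 1 and 430 in grp 2, against 988. SgshKO against WT at 4 months gave 1742, 1490 and 1571 without WT library 1, WT library 2 and SgshKO library 2, against 2794.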

Other observations

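Under the combined Mitf and Tfe3 ASOs in SgshKO, 24 other Smads, Smad modifiers and co-regulators were tested, of which 4 were higher and 1 lower (median 0.01). Ncor1, a nuclear corepressor, was at 97.9 ± 16.1 CPM against 72.4 ± 17.6 under ntc (SD, n = 8 each), a log2 fold change of 0.46 (adjusted p = 0.00359, edgeR quasi-likelihood test). Tab2, an adaptor of the kinase TAK1, was higher by 0.15 (adjusted p = 0.0109), and Zfyve9, an endosomal protein that brings SMAD2 and SMAD3 to the receptor, by 0.21 (adjusted p = 0.0350). Ncor1 and Tab2 kept their calls in all 16 tests that left out 1 library, and Zfyve9 lost its call in 8 of them. Without grp in the fit none of the 3 passed. Junb, an immediate early gene that the pathway induces, was lower in the same comparison (-0.32, adjusted p = 0.0121), and kept its call when any 1 library was left out. P2ry13, a microglial nucleotide receptor, was lower (-0.15, adjusted p = 0.0369), and lost that call in 10 of the 16 tests.

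Tgfbi, a secreted matrix protein named for its induction by TGF-beta, was at 52.0 ± 4.43 CPM under the Mitf ASO, 52.0 ± 3.19 under the Tfe3 ASO, 63.6 ± 3.23 under the Tfeb ASO and 63.4 ± 7.04 under ntc (SD, n = 4 each). It was lower under the Mitf ASO (-0.29, adjusted p = 0.0121) and the Tfe3 ASO (-0.28, adjusted p = 0.0367), and had 0.01 under the Tfeb ASO (adjusted p = 0.969). The Mitf and Tfe3 ASO values each differed from the Tfeb ASO value (adjusted p = 0.0239 and 0.0394, edgeR quasi-likelihood test). These comparisons share libraries, so they are not independent of one another. Leaving out 1 of the 8 libraries ended the call in 2 tests for the Mitf ASO and in 7 for the Tfe3 ASO, and in 6 and 8 for the differences from the Tfeb ASO. Jun was lower under the Mitf ASO (-0.28, adjusted p = 0.0225) and Mertk, a phagocytic receptor, under the Tfe3 ASO (-0.18, adjusted p = 0.0262), and these calls were lost in 5 and 7 of 8 such tests. Csf1r, the receptor that microglia need to survive, was lower under the Mitf than under the Tfeb ASO (-0.18, adjusted p = 0.0222), a call lost in 6 of 8 tests.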
